A study of Rattus norvegicus with 16 samples.

Results

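Gene expression in the rat retina at circadian time 6 (CT6) was compared with that at Zeitgeber time 6 (ZT6). The members were chosen by title and are 6 of the 16 arrays of the series, 3 titled retina at CT6 and 3 titled retina at ZT6. Zeitgeber time conventionally counts hours from lights on in a light-dark cycle. Circadian time counts hours of the internal clock in constant conditions, usually darkness, so that hour 6 is the middle of the day on both scales. A comparison at the same hour asks what a light-dark cycle adds to the state that the clock alone sets, but the labels state no question and do not describe the lighting.

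Both groups are total RNA from Rattus norvegicus. Strain, sex, age and genotype are not given in the labels, nor is whether each array is a separate animal or a pool. The p-values below therefore measure only the spread between these arrays, which may be technical. The other arrays of the series are retina at hour 12 (3 arrays titled CT12 and 3 titled ZT12) and 4 single pineal arrays.

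The retina keeps time on its own. Transcription factors such as Bmal1 drive the Per and Nr1d genes, whose products feed back on them, and output factors such as Dbp carry the rhythm to other genes. Light acts beside the clock, and in retinal neurons it alters immediate early genes such as Fos and Egr1 within minutes to hours.

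The arrays carry 8799 probe sets, of which 59 are controls. Of the other 8740, 7006 have a single gene symbol. A probe set was tested when its mean over the 6 arrays reached the 40th percentile, or 8.9 log2 units, which left 5244 probe sets for 3165 genes. A probe set below that level in 1 group could pass through the other group, which favours dim probe sets that differ. Values are log2 of the deposited intensity plus 16 after quantile normalization of the 6 arrays. Deposited medians were 746.3 to 818.8 at CT6 and 791.1 to 804.6 at ZT6. Precision is limited by having 3 arrays in each group. The rod list, which checks the tissue, had 13 of its 14 genes on the array past the filter, with a mean level of 13.88 to 14.14 at CT6 and 13.9 to 14.14 at ZT6. The arrays numbered 3 have "brain, retina" as their source. Of 18 oligodendrocyte and brain genes on the array, 6 passed the filter, and the myelin genes Mbp, Mog and Mobp did not. Mag, another myelin gene, was at 10.59, 10.33 and 10.62 on CT6 arrays 1 to 3 and at 10.58, 10.45 and 10.57 on ZT6 arrays 1 to 3, so the arrays numbered 3 did not stand apart in it.

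Lens genes set a pair of arrays apart. Crybb2, a structural crystallin of the lens fibre, was at 17.67, 17.76 and 12.8 on CT6 arrays 1 to 3 and at 17.55, 12.86 and 17.4 on ZT6 arrays 1 to 3. CT6 array 3 and ZT6 array 2 were the low ones. The mean of 13 lens genes was 14.54, 14.9 and 11.16 at CT6 and 14.44, 11.34 and 14.5 at ZT6. The same arrays were low in it, and the groups overlapped. The group means of this lens level were 13.53 ± 2.07 at CT6 and 13.43 ± 1.81 at ZT6 (SD, n = 3 each), a difference of 0.1 (exact two-sided permutation test, p = 0.8, where 0.1 is the smallest p possible). CT6 array 3 correlated best with ZT6 array 2 (Spearman 0.952). These arrays share a low lens level. Genes of the cornea and its surroundings set a different pair apart. Krt5, a keratin of surface epithelium, was at 13.11, 8.38 and 7.05 on CT6 arrays 1 to 3 and at 10.47, 13.36 and 8.5 on ZT6 arrays 1 to 3. Aldh3a1, an abundant enzyme of the cornea, was at 13.48, 9.94 and 9.41 at CT6 and at 10.58, 13.59 and 9.67 at ZT6. CT6 array 1 and ZT6 array 2 were the high ones in both. The part of these levels in the results below was not tested. Values that turn on CT6 array 3 are given with and without it. Whether that array was labelled or handled like its partners is not settled by the labels, so these values hold only as far as its label is right.

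**Figure D1:**
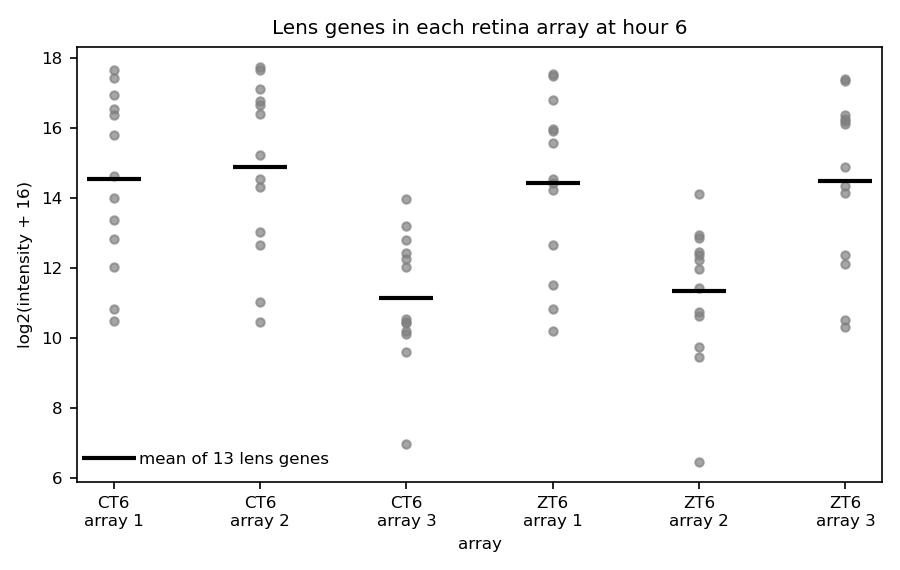
Level of 13 lens genes on each of the 6 retina arrays, with array on the horizontal axis and log2(intensity + 16) on the vertical axis. Grey points are genes and black bars are array means, which are 11.16 on CT6 array 3 and 11.34 on ZT6 array 2, against 14.44 to 14.9 on the other 4 arrays.

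With all 6 arrays, no gene passed the test between CT6 and ZT6. In limma, 0 of 5244 probe sets had an adjusted p under 0.05 (0%), and the smallest adjusted p was 0.287. At an unadjusted p under 0.05 there were 512 probe sets, 245 higher at CT6 and 267 lower. All 3 CT6 arrays lay above all 3 ZT6 arrays in 425 probe sets (8.1%) and below them in 487 (9.29%). The median absolute difference was 0.17 log2 units, and the median SD within a group was 0.201 at CT6 and 0.181 at ZT6. A difference over 1 log2 unit, which is 2-fold, was seen in 41 probe sets, 22 higher and 19 lower at CT6.

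A missed threshold does not show equality, so the intervals are also given. The 95% limma interval lay within 2-fold in either direction for 4534 probe sets (86.5%) and reached 2-fold or more for 710. Its median half-width was 0.4 log2 units. In a simulated comparison of the same size, a simulated 2-fold change was recovered in 49 of 100 probe sets and a simulated 4-fold change in 92 of 100, beside 4 false calls. The simulation drew independent noise for each probe set and array. It had no shifts shared by many genes, such as the lens level here, so recovery in the real arrays may differ.

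Genes of the amino acid response differed together on part of the arrays. When amino acids run short or protein folding is disturbed, kinases phosphorylate the translation factor eIF2, the factor Atf4 is then translated, and it binds C/EBP-ATF response elements in its target genes. The targets make, import or charge amino acids, or act in stress signalling. In 8 of the 21 genes tested, CT6 arrays 1 and 2 lay over 1 log2 unit below all 3 ZT6 arrays in at least 1 probe set, where CT6 array 3 was within 0.5 log2 units of the ZT6 mean. The other 13 differed less or not at all. The list of 49 such genes was written after these values had been seen, so its counts describe the arrays and support nothing further.

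The promoters of 3 of these genes are shown because they hold a match to TGATGNAA, a motif of the C/EBP-ATF type. Each sequence runs from 100 bases before to 20 bases after the gene start on the gene's own strand (RefSeq, build GRCr8), and capitals mark the match.
Slc7a1: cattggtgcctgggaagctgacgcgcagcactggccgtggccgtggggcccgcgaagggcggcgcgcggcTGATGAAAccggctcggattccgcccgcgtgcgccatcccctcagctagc
Tars1: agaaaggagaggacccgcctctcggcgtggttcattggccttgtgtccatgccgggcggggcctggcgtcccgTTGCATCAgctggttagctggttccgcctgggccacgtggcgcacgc
Trib3: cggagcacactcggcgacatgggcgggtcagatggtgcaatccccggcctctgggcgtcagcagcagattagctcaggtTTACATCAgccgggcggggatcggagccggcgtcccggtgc
The Slc7a1 window is chr12:11664388-11664507 on the plus strand, the Tars1 window is chr2:62114783-62114902 on the minus strand and the Trib3 window is chr3:161275514-161275633 on the minus strand. The match begins at -30 in Slc7a1, at -27 in Tars1 and at -21 in Trib3, relative to the gene start. In Tars1 and Trib3 it is on the strand opposite to the gene. Both strands were searched from 250 bases before to 50 bases after the start, and no other motif was sought. A match was found in 1332 of 33469 RefSeq promoters (3.98%). Of the 8 genes of this list whose CT6 arrays 1 and 2 lay over 1 log2 unit below all ZT6 arrays, 6 had a promoter in the table and 3 of these held a match. The letters were not in the window of Asns, Ddit3 or Gdf15. Over all genes of the list that passed the filter, 4 of 22 promoters held a match, and the fourth was that of Got1, which differed by 0.01. The genes were picked by these same values from a list of response genes written after the values had been seen. Their share of matches can therefore not be read against that of all promoters as a test. A match is a description of the sequence and not a measured binding site.

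Asns, which makes asparagine, was at 10.09, 9.98 and 12.52 on CT6 arrays 1 to 3 and at 12.68, 12.85 and 12.64 on ZT6 arrays 1 to 3. CT6 arrays 1 and 2 stood far below the other 4, and CT6 array 3 lay just below the ZT6 arrays, so the groups did not overlap. Over all 6 arrays the difference was -1.86 ± 0.65 (SE, adjusted p = 0.461), and without CT6 array 3 it was -2.67 ± 0.14, or 6.36-fold lower (adjusted p = 0.00399).

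Slc7a1, the cationic amino acid transporter that carries arginine and lysine, has 3 probe sets. The widest difference was at rc_AA957917_s_at, with 7.68, 7.86 and 11.22 on the CT6 arrays and 11.37, 11.09 and 11.24 on the ZT6 arrays. Again only CT6 array 3 reached the ZT6 level. The difference was -2.31 ± 0.89 (adjusted p = 0.478), and without CT6 array 3 it was -3.45 ± 0.15, or 10.9-fold lower (adjusted p = 0.00356). The probe set U70476_at differed by -1.36 over all arrays and by -1.92 without CT6 array 3 (adjusted p = 0.0652), and L10152_s_at by -0.5 and -0.8. All 3 probe sets thus had the same sign and differed in size.

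Trib3, a pseudokinase induced by stress, was at 9.36, 9.25 and 12.06 on the CT6 arrays and at 11.93, 11.87 and 12.13 on the ZT6 arrays. CT6 array 3 lay among the ZT6 arrays. Its difference was -1.75 ± 0.72 (adjusted p = 0.503), and -2.66 ± 0.14 without that array (6.32-fold lower, adjusted p = 0.00399).

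Atf3, a stress-induced transcription factor that is also an immediate early gene, was at 9.63, 9.33 and 12.82 on the CT6 arrays and at 12.1, 12.49 and 12.69 on the ZT6 arrays. CT6 array 3 was the highest of all 6 and arrays 1 and 2 the lowest. The difference was -1.84 ± 0.88 (adjusted p = 0.553), and -2.94 ± 0.22 without CT6 array 3 (7.65-fold lower, adjusted p = 0.0183). These 4 probe sets, of Slc7a1, Asns, Trib3 and Atf3, were the only ones of the 5244 that passed in limma when CT6 array 3 was left out (0.0763%), and all fell. That array departs from its partners in these same genes, so leaving it out favours them and the p-values are no independent test.

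Other members showed the same arrays apart without passing in either fit. Gdf15, a secreted stress cytokine, was at 6.54, 7.67 and 10.49 at CT6 and at 10.07, 10.4 and 10.46 at ZT6. Its CT6 mean of 8.23 was below the filter level. Tars1, which charges threonine onto its transfer RNA, was at 12.01, 12.29 and 13.68 at CT6 and at 13.62, 13.93 and 14.03 at ZT6. Ddit3, a C/EBP factor linked to endoplasmic reticulum stress, was at 11.54, 11.59 and 13.29 at CT6 and at 12.78, 12.98 and 13.04 at ZT6. In all 3 genes CT6 arrays 1 and 2 were the lowest of the 6. Over all 6 arrays their differences were -2.08 for Gdf15 (adjusted p = 0.527), -1.2 for Tars1 (adjusted p = 0.461) and -0.79 for Ddit3 (adjusted p = 0.597). Without CT6 array 3 they were -3.2 for Gdf15 (adjusted p = 0.0703), -1.71 for Tars1 (adjusted p = 0.0652) and -1.36 for Ddit3 (adjusted p = 0.0652). Eif4ebp1, a repressor of cap-dependent translation, differed by -0.88 at its probe set U05014_g_at (adjusted p = 0.555), and by -1.39 without that array (adjusted p = 0.148). Slc7a5, a transporter of large neutral amino acids, was at 11.88, 13.06 and 14.06 at CT6 and at 14.01, 13.94 and 14.24 at ZT6. It differed by -1.06 over all arrays (adjusted p = 0.551) and by -1.6 without CT6 array 3 (adjusted p = 0.308).

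Of the 49 genes written, 24 are on the array and 21 passed the filter. CT6 arrays 1 and 2 lay below all ZT6 arrays in at least 1 probe set of 16 genes, by over 1 log2 unit in 8 (Asns, Atf3, Ddit3, Eif4ebp1, Gdf15, Slc7a1, Tars1 and Trib3). They lay above them in 2, Gadd45a and Ppp1r15a. Counting genes by any of their probe sets favours genes with several, so the same counts are given over everything tested. CT6 arrays 1 and 2 lay below all ZT6 arrays in 22 of the list's 36 probe sets and in 907 of 5244 overall (17.3%), or 679 of 3165 genes (21.5%). They lay below by over 1 log2 unit in 9 of the 36, and these were all 9 of the 5244 that did so (0.172%). They lay above in 4 of the 36 and in 668 overall (12.7%). The list was written after these values were seen, so its counts cannot be read against those shares as a test. Gadd45a, a stress gene that acts in growth arrest, was at 10.93, 10.75 and 10.48 at CT6 and at 10.37, 10.36 and 10.34 at ZT6, a difference of 0.36 (adjusted p = 0.498), and of 0.48 without CT6 array 3 (adjusted p = 0.396). Not every gene of amino acid metabolism took part. Got1, an aspartate aminotransferase, differed by 0.01 (95% interval -0.28 to 0.3). Phgdh, the enzyme that opens serine synthesis, was at 11.95, 11.64 and 11.01 at CT6 and at 12.28, 10.89 and 11.85 at ZT6. It was lowest on CT6 array 3 and ZT6 array 2, the arrays low in lens genes.

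The pattern was looked for on every array over all 5244 probe sets. An array was counted where it lay within 0.5 log2 units of the other group's mean while both of its own partners lay more than 1 unit below every array of that group. CT6 array 3 had 9 such probe sets, and they belong to the 8 genes just named. ZT6 array 1 had 2, of Git1 and Rhbdl1, ZT6 array 2 had 1, of Il1rl2, and the other 3 arrays had 0. In the opposite direction, with both partners above the other group, CT6 array 3 had 2, of Egr1 and Ccnd2, and no other array had any.

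**Figure D2:**
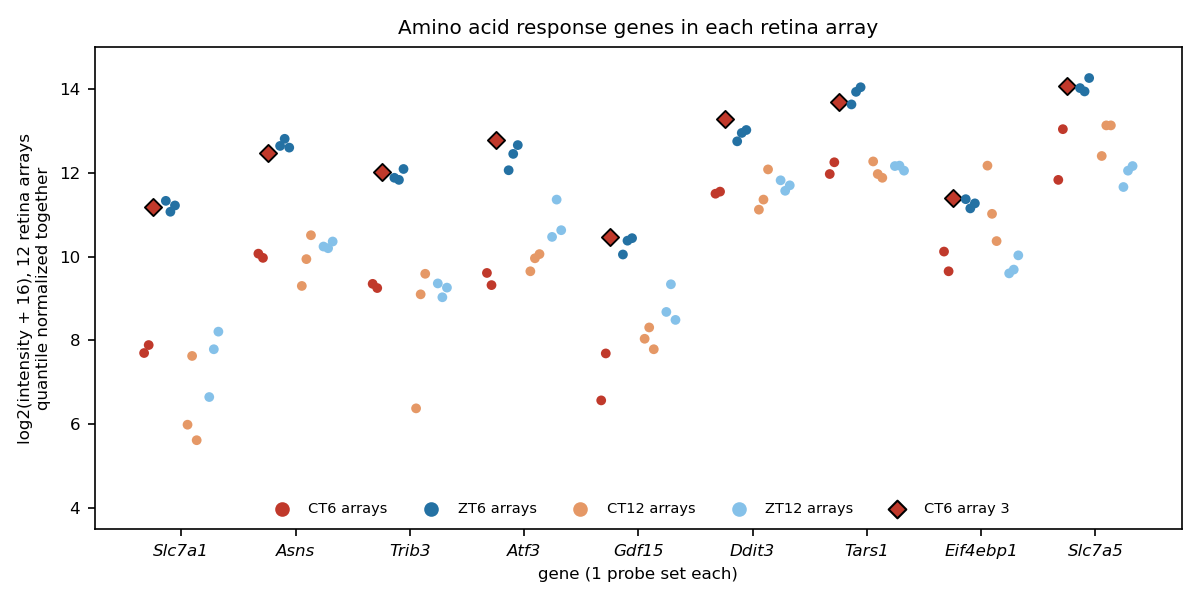
Level of 9 amino acid response genes (1 probe set each) on the 12 retina arrays, normalized together, with gene on the horizontal axis and log2(intensity + 16) on the vertical axis. Each point is an array, and the diamond is CT6 array 3. For Asns it lies at 12.48, beside ZT6 arrays at 12.6 to 12.81, while CT6 arrays 1 and 2 lie at 10.07 and 9.97, in the range of the hour 12 arrays.

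The arrays at hour 12 place these levels. With all 12 retina arrays normalized together, Asns was at 10.07, 9.97 and 12.48 at CT6, at 12.64, 12.81 and 12.6 at ZT6, at 9.3, 9.94 and 10.51 at CT12 and at 10.24, 10.2 and 10.36 at ZT12. The 4 high arrays were thus those of ZT6 and CT6 array 3, and CT6 arrays 1 and 2 had the level of hour 12. Trib3 was at 9.35, 9.25 and 12.02 at CT6, at 11.88, 11.83 and 12.09 at ZT6, at 6.38, 9.1 and 9.59 at CT12 and at 9.36, 9.03 and 9.26 at ZT12. Tars1 was at 11.97, 12.25 and 13.68 at CT6, at 13.63, 13.93 and 14.04 at ZT6, at 12.27, 11.97 and 11.88 at CT12 and at 12.16, 12.17 and 12.05 at ZT12. The same 4 arrays were high in both. Eif4ebp1 departed from this, since its probe set U05014_g_at reached 12.17, 11.02 and 10.37 at CT12, against 9.6, 9.69 and 10.03 at ZT12. CT12 array 1, the highest of these, was the lowest of the 12 arrays in Trib3, at 6.38. It also stood apart from CT12 arrays 2 and 3 in Got1, at 11.52 against 14.02 and 14.24. The same held in Bcat1, another gene of the list, at 10.34 against 13.42 and 13.94.

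CT6 array 3 is also low in lens genes. ZT6 array 2 has the same low lens level and was high in Asns, Slc7a1 and Trib3 like the other ZT6 arrays. With both of these arrays left out, 3 probe sets passed, all lower at CT6. They were of Slc7a1 (-3.54, adjusted p = 0.019), Asns (-2.6, adjusted p = 0.0239) and Trib3 (-2.72, adjusted p = 0.0239). Without the arrays numbered 3 in both groups, the same 3 genes passed, with Slc7a1 at -3.46, Asns at -2.71 and Trib3 at -2.59 (adjusted p = 0.0412 each). Both settings leave out CT6 array 3, so they are no independent check of the fit without it. What sets CT6 array 3 apart from its partners was not tested.

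The single pineal arrays at hour 6 did not show differences of this size in most of these genes. Asns was at 12.16 in the pineal at CT6 and 12.04 at ZT6, Tars1 was at 13.23 at CT6 and 13.22 at ZT6, and Atf3 was at 9.79 at CT6 and 9.48 at ZT6. Trib3 was at 8.4 at CT6 and 6.54 at ZT6. In the other direction, the Eif4ebp1 probe set U05014_at was at 6.06 at CT6 and 8.89 at ZT6. The Slc7a1 probe set L10152_s_at was at 7.62 at CT6 and 9.26 at ZT6, while U70476_at was at 9.58 and 9.59. Gdf15 (7.33 at CT6, 6.45 at ZT6) and the Slc7a1 probe set rc_AA957917_s_at (5.7 and 5.51) were too dim to show a fall. These pairs have no replicate and no test.

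Egr1, an activity-induced zinc finger factor, had the opposite pattern across the CT6 arrays. It was at 12.83, 12.77 and 10.83 on CT6 arrays 1 to 3 and at 10.98, 11.1 and 11.37 on ZT6 arrays 1 to 3. CT6 arrays 1 and 2 were high, and array 3 was the lowest of all 6. The difference of 1 ± 0.52 did not pass (adjusted p = 0.574), nor did that of 1.64 ± 0.16 without CT6 array 3 (adjusted p = 0.0652). A further probe set, M18416_at, followed it, at 10.59, 9.95 and 8.24 at CT6 and 9.12, 7.84 and 8.49 at ZT6. It differed by 1.11 (adjusted p = 0.582), and by 1.78 without CT6 array 3 (adjusted p = 0.308). The ZT6 mean of this probe set, 8.48, was below the filter level. The probe set U75398_s_at differed by 0.09. Jun, a subunit of the AP-1 factor, was at 10.46, 10.77 and 12.37 at CT6 and at 11.12, 10.96 and 11.91 at ZT6, so that its highest value was also on CT6 array 3. This Jun probe set, rc_AI175959_at, differed by -0.13 with that array and by -0.71 ± 0.31 without it (adjusted p = 0.495), and the others by -1.03 and -0.09 over all arrays. The first of those others, X17163cds_s_at, differed by -1.89 ± 0.47 without CT6 array 3 (adjusted p = 0.35).

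Of the core clock genes at hour 6, 4 differed by at most 0.11 at their brightest probe set, and Per2 and Rorb had groups that were apart. Over all 3165 genes tested, CT6 arrays lay wholly above ZT6 arrays in 223 and wholly below them in 306. The list had 6 genes past the filter, 5 with positive and 1 with a negative difference, and a median of 0.09 log2 units, against -0.016 over all 3165 genes, of which 1484 were positive. None passed. Bmal1, the activator at the centre of the loop, was at 12.63, 12.7 and 13.28 at CT6 and at 12.63, 12.99 and 12.78 at ZT6, and the groups overlapped. Its difference was 0.07 (95% interval -0.43 to 0.56), and -0.13 in its second probe set. Without CT6 array 3 these differences were -0.14 and -0.31. Nr1d1 and Nr1d2, nuclear receptors that repress Bmal1, differed by 0.11 and 0.05, and the kinase gene Csnk1d by -0.08. The second Csnk1d probe set, L07578_at, was at 10.96, 11.32 and 11.28 at CT6 and at 11.44, 11.52 and 11.74 at ZT6. Its CT6 arrays lay below all ZT6 arrays, and it differed by -0.38 (95% interval -0.75 to -0.02, adjusted p = 0.503).

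Per2, a repressor of the loop whose gene also responds to light in the brain's clock, was at 9.52, 9.75 and 9.28 at CT6 and at 9.2, 9.16 and 9.17 at ZT6. All CT6 arrays lay above all ZT6 arrays by a small margin. The difference was 0.34 (95% interval -0.02 to 0.69, adjusted p = 0.527). Rorb, an orphan nuclear receptor of retinal neurons, was at 11.92, 11.96 and 11.33 at CT6 and at 10.55, 11.23 and 11.09 at ZT6, again with no overlap. It differed by 0.78 ± 0.25 (95% interval 0.2 to 1.37, adjusted p = 0.458), so that a difference of over 2-fold is within its interval.

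Clock output genes had a median of -0.2, with 6 of 7 genes negative and no gene whose groups were apart. Dbp, an output factor driven directly by Bmal1, was at 13.08, 13.09 and 13.41 at CT6 and at 13.14, 13.28 and 13.12 at ZT6. The groups overlapped, and the difference was 0.01 (95% interval -0.32 to 0.34). Its relatives Tef and Hlf differed by -0.2 and -0.23, the kinase gene Wee1 by -0.25, the repressor genes Bhlhe40 and Bhlhe41 by -0.17 and -0.08, and Cirbp, a cold-inducible RNA-binding protein, by -0.36. For 6 of the 7 the interval lay within 2-fold. Without CT6 array 3, Cirbp differed by -0.66, Bhlhe40 by -0.38 and Dbp by -0.1. In Cirbp and Bhlhe40, CT6 arrays 1 and 2 lay below all ZT6 arrays, so the overlap came from CT6 array 3.

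In the melatonin and serotonin list, 4 of 8 genes on the array passed the filter. Asmt, the last enzyme of melatonin synthesis, differed by -0.34, the amine oxidase genes Maoa and Maob by 0.1 and -0.17 (0.28 in a second Maoa probe set), and the serotonin transporter Slc6a4 by 0.16. Without CT6 array 3, Asmt differed by -0.65 ± 0.24 (adjusted p = 0.457). Aanat and Tph1, the rhythmic enzymes of that pathway, and the melatonin receptor Mtnr1a were below the filter.

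**Figure D3:**
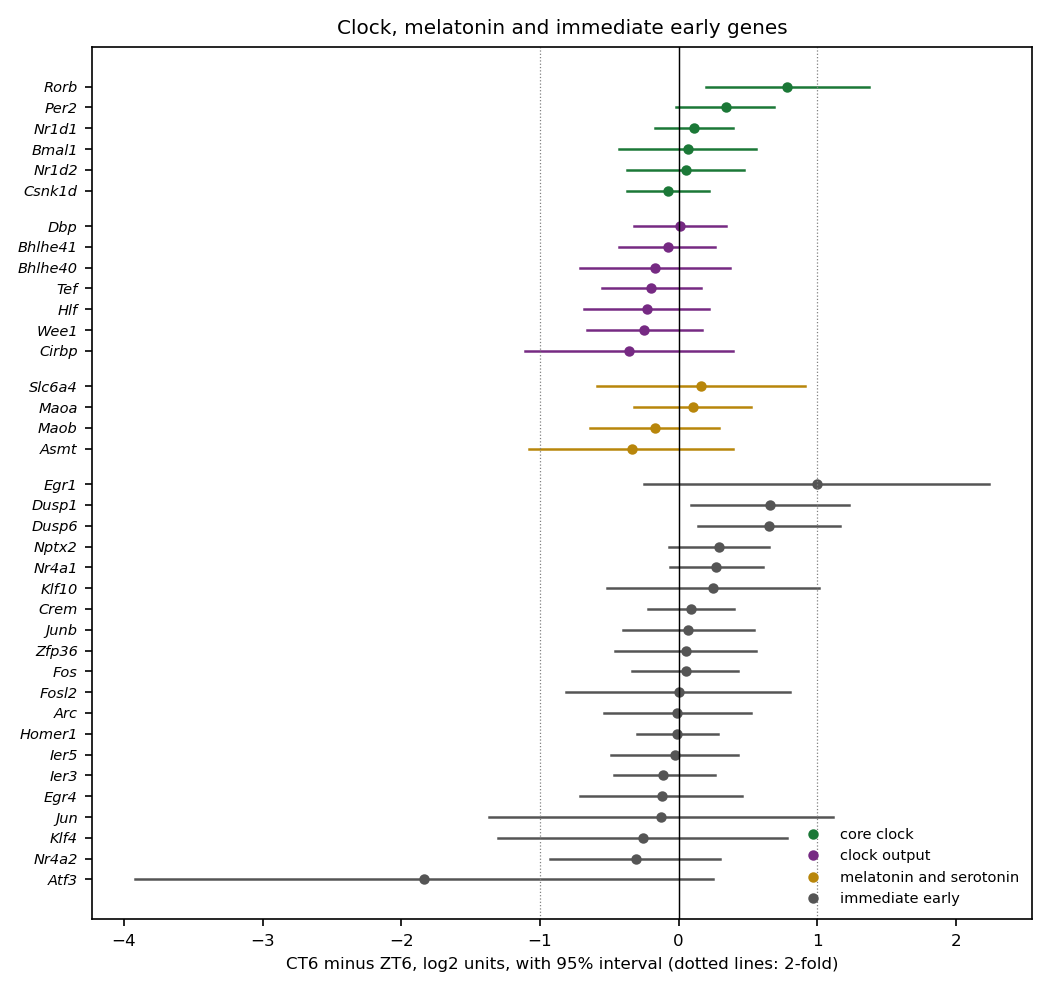
Difference between CT6 and ZT6 in log2 units on the horizontal axis, with 95% limma intervals, for each core clock, clock output, melatonin and serotonin, and immediate early gene tested, each by its brightest probe set. The interval of Dbp runs from -0.32 to 0.34, and only Atf3, Egr1 and Rorb have differences over 0.7 in either direction.

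Immediate early genes, which neurons switch on within minutes of activity, were split, with 10 positive and 10 negative differences among 20 genes and a median of 0.02. Fos, a partner of Jun in AP-1, was at 11.41, 11.29 and 11.59 at CT6 and at 11.29, 11.21 and 11.65 at ZT6, and the groups overlapped. Its difference was 0.05 (95% interval -0.34 to 0.43), and 0.3 in its second probe set. Junb, Arc and Homer1 differed by 0.07, -0.01 and -0.01, and the nuclear receptor gene Nr4a1 by 0.27. A second Junb probe set differed by -0.24, and the 4 other probe sets of Homer1 by -0.28 to 0.43. By their brightest probe sets, the 3 genes with CT6 arrays wholly above ZT6 arrays were Nr4a1 and the phosphatase genes Dusp1 and Dusp6. This order was seen in 223 of all 3165 genes tested, also by their brightest probe sets. Nptx2 is in this list too, and its less bright probe set S82649_r_at was wholly higher at CT6 (1.78), as described below.

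Dusp1 and Dusp6 remove phosphate from MAP kinases. Dusp1 was at 12.13, 12.19 and 12.05 at CT6 and at 11.65, 11.81 and 10.91 at ZT6 for its brightest probe set. All CT6 arrays were the higher, here and in both other Dusp1 probe sets. The 3 probe sets differed by 0.66, 0.71 and 0.48, none past the threshold (adjusted p = 0.466 for the brightest). Dusp6 was at 10.45, 10.33 and 10.12 at CT6 and at 10.05, 9.28 and 9.63 at ZT6, a difference of 0.65 (adjusted p = 0.461), while its second probe set, U42627_at, differed by -0.05.

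The kinases themselves included Mapk7, which transmits growth factor and stress signals. It was at 9.99, 10.42 and 9.9 at CT6 and at 8.91, 8.04 and 8.36 at ZT6, and the groups did not overlap. Its ZT6 mean of 8.44 was below the filter level, so it passed the filter through its CT6 arrays. The difference was 1.66 ± 0.26 (3.17-fold, adjusted p = 0.458), and its other probe set differed by 0.72. Map3k3, an activator of that pathway, differed by 0.62 (adjusted p = 0.458). Mapk14, a stress-activated kinase, had probe sets that disagreed. U73142_g_at was at 12.86, 13.11 and 12.84 at CT6 and 13.46, 13.58 and 13.43 at ZT6 (-0.56), whereas rc_AI171630_s_at was at 12.59, 13.04 and 12.68 at CT6 and 11.89, 12.47 and 12.13 at ZT6 (0.6). Both had groups that did not overlap, with opposite signs, so no direction is given for the gene. Over the 15 genes of the MAP kinase list the median was 0.05, with 4 wholly higher and 1 wholly lower at CT6. Of all 3165 genes tested, 223 were wholly higher and 306 wholly lower.

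Among all genes, the smallest p belonged to Gm2a, a lysosomal activator protein that presents gangliosides for breakdown. It was at 10.4, 10.79 and 10.39 at CT6 and at 8.74, 9.18 and 8.81 at ZT6. Every CT6 array was over 1 unit above every ZT6 array. The difference was 1.62 ± 0.18 (95% interval 1.19 to 2.05, 3.07-fold, adjusted p = 0.287). The rest of the lysosome and sphingolipid list did not follow it, with 9 positive and 13 negative differences among 22 genes and a median of -0.08. Psap, the precursor of related activator proteins, was at 16.18, 16.19 and 16.12 at CT6 and at 16.51, 16.33 and 16.45 at ZT6, a difference of -0.27 at its brightest probe set (adjusted p = 0.516). Its other probe sets, M19936_at and S81353_s_at, differed by 0.24 and 0.11, so no direction is given for the gene. Gaa, a lysosomal glucosidase, and Ctss, a protease of microglia, differed by -0.35 and -0.29.

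Nptx2, an activity-regulated pentraxin that clusters glutamate receptors at synapses, had the next smallest p through its probe set S82649_r_at. That probe set was at 11.84, 11.79 and 11.43 at CT6 and at 9.61, 9.77 and 10.35 at ZT6, with no overlap. The difference was 1.78 ± 0.23 (3.42-fold, adjusted p = 0.318). The second probe set, S82649_s_at, was at 11.75, 12.11 and 12.15 at CT6 and at 11.61, 11.68 and 11.84 at ZT6 and differed by 0.29. The suffix r marks probe sets that did not meet all of the maker's design rules, so the gene's direction rests on probe sets of unequal size of difference.

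Disagreement between probe sets was seen in other genes. Of 68 named genes with several probe sets tested, 20 had differences of both signs, and values are those of the brightest probe set where no other is named. Slc25a10, a mitochondrial dicarboxylate carrier, was at 9.97, 10.03 and 9.64 at CT6 and at 7.44, 7.78 and 8.67 at ZT6 for rc_AA859666_i_at (1.92, adjusted p = 0.458), while its other probe sets differed by 0.01 and 0. Kcnj11, a subunit of ATP-sensitive potassium channels, differed by 1.21 in D86039_g_at and by 0.21 in the other. Jak2, a cytokine receptor kinase, differed by 0.88 and 0.02, and Gstk1, a mitochondrial glutathione transferase, by 1.53 and 0.05. For these 4 genes a single probe set carries the difference. In Slc25a10, Kcnj11 and Jak2 that probe set had a ZT6 mean of 7.96, 8.44 and 8.59, below the filter level. It passed the filter through its CT6 arrays.

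Other genes had a single probe set or probe sets that went the same way. Gas7, a growth arrest gene of neurons, differed by 1.11, 0.6 and 0.54 in its 3 probe sets. Its probe set AJ003148cds_s_at was at 10.26, 10.3 and 10.71 at CT6 and at 9.61, 8.87 and 9.47 at ZT6. Snrk, a kinase related to the energy sensor AMPK, was at 12.08, 11.92 and 11.85 at CT6 and at 11.22, 11.37 and 11.18 at ZT6 (0.69, adjusted p = 0.458). Dnm3, a dynamin of synapses, differed by 0.94 and Nkx2-5, a homeobox gene known from the heart, by 0.86. The ZT6 mean of Dnm3 was 8.74, below the filter level. In AJ003148cds_s_at and in the probe sets of Snrk, Dnm3 and Nkx2-5 the CT6 arrays lay above all ZT6 arrays.

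On the lower side, Aph1a, a subunit of the gamma-secretase complex, was at 10.93, 10.85 and 10.85 at CT6 and at 11.63, 11.47 and 11.45 at ZT6. Its difference was -0.63 ± 0.12 (adjusted p = 0.458), and its second probe set differed by -0.86. Cyp2c23, an epoxygenase of arachidonic acid, was at 9.18, 9.4 and 9.36 at CT6 and at 10.05, 10.22 and 10 at ZT6 (-0.78). Fut1, a fucosyltransferase, differed by -0.78 and -1.07 in its probe sets. The CT6 mean of the second, L26009_s_at, was 8.46, below the filter level. In the Aph1a and Cyp2c23 probe sets every CT6 array was below every ZT6 array, and in Fut1 this held for the first of its probe sets.

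Srsf2, a splicing factor, was at 14.29, 14.33 and 14.29 at CT6 and at 14.83, 15.09 and 14.86 at ZT6 (-0.62), but its second probe set differed by 0.13. Eif3b, a subunit of a translation initiation factor, differed by -0.69 and -0.1 in its probe sets, Ctxn1, a neuronal membrane protein, by -1.1, and Zswim7, which acts in DNA repair, by -0.77. The potassium channel genes Kcnj15 and Kcnmb1 differed by -1.14 and -0.98, with CT6 means of 8.77 and 8.82, below the filter level. The second Kcnmb1 probe set, AF020712_at, differed by 0.3. None of them passed (adjusted p = 0.458 for each of the lower probe sets).

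**Figure D4:**
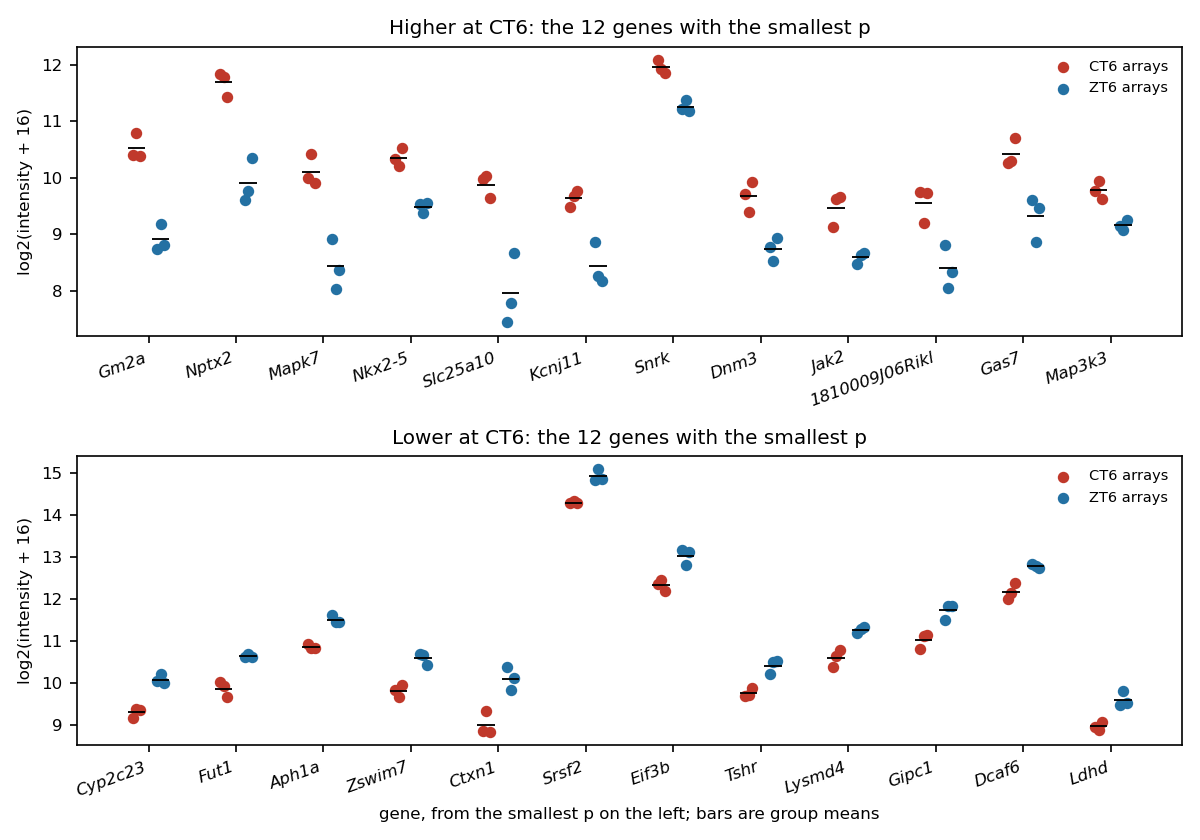
The 12 genes higher and the 12 lower at CT6 with the smallest limma p, with gene on the horizontal axis and log2(intensity + 16) on the vertical axis. Points are arrays, bars are group means of 3 arrays, and in every gene shown the CT6 and ZT6 arrays do not overlap, as in Gm2a (10.39 to 10.79 at CT6 and 8.74 to 9.18 at ZT6).

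Genes of the retinal cell types differed little between the groups. The 13 rod genes tested had a median of 0.02, and 12 had intervals within 2-fold. Sag, the arrestin that ends the rod light response, differed by 0.12, Grk1, the rhodopsin kinase, by 0.01 and Pdc, phosducin, by 0.14. The 3 cone genes tested were all positive, with a median of 0.35. Opn1mw, the middle-wave opsin, was at 12.53, 12.69 and 12.74 at CT6 and at 11.97, 12.53 and 12.39 at ZT6 (0.35, adjusted p = 0.56), and by its second probe set it differed by 0.52 with no overlap (adjusted p = 0.458). Opn1sw, the short-wave opsin, differed by 0.39 (adjusted p = 0.574). The lowest value of both opsins was on ZT6 array 1.

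In the inner retina, Tac1, the substance P precursor of amacrine cells, was at 12.48, 12.18 and 12.47 at CT6 and at 11.8, 12.01 and 11.73 at ZT6. All CT6 arrays were the higher (0.53, adjusted p = 0.458), and its second probe set did not share this (adjusted p = 0.936). Slc18a3, the vesicular acetylcholine transporter of starburst amacrine cells, was at 10.87, 10.91 and 11.03 at CT6 and at 11.35, 11.41 and 11.24 at ZT6 (-0.39, adjusted p = 0.458), and its second probe set differed by -0.04. Grm6, the glutamate receptor of ON bipolar cells, differed by 0.29 and Prkca, a kinase of rod bipolar cells, by 0.33. Sncb, a synuclein of neurons, differed by 0.43, and all 17 ganglion cell genes had intervals within 2-fold.

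Drd4, a dopamine receptor of photoreceptors that is known to vary over the day, was at 14.2, 14.33 and 14 at CT6 and at 13.28, 13.77 and 13.75 at ZT6. The groups did not overlap, and the difference was 0.58 (95% interval 0.15 to 1, adjusted p = 0.458). Drd1 and Drd2, further receptors of the same transmitter, differed by 0.39 and 0.42 with overlap, and Drd3 by -0.22. The other Drd1 probe sets differed by 0.56, with no overlap, and by 0. Over the 8 dopamine genes tested the median was 0.01. Genes that rise in light damage and glial stress had a median of -0.09, with 12 of 16 negative and no gene whose groups were apart at its brightest probe set. In A2m, less bright probe sets had groups that were apart, with both signs. M22670cds_at and M22670cds_g_at were wholly higher at CT6 (0.42 and 0.29), and X13983mRNA_at was wholly lower (-0.17). Edn2, an endothelin of stressed photoreceptors, was at 8.8, 9.3 and 9.88 at CT6 and at 10.02, 9.85 and 9.61 at ZT6 (-0.5, adjusted p = 0.582), with overlap through CT6 array 3. Without that array it differed by -0.77 ± 0.21 (adjusted p = 0.396).

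Cd44, an adhesion receptor on Müller glia, was at 10.97, 11 and 10.85 at CT6 and at 10.22, 10.51 and 10.23 at ZT6 (0.62, adjusted p = 0.458). Rpe65, the isomerase of the pigment epithelium, was at 10.56, 8.99 and 9.76 at CT6 and at 8.85, 7.19 and 8.98 at ZT6. Every CT6 array lay above every ZT6 array, in some cases by little, and the difference was 1.43 ± 0.57 (adjusted p = 0.502). The ZT6 mean of Rpe65 was 8.34, below the filter level, so it passed the filter through its CT6 arrays. The visual cycle and pigment epithelium list had a median of 0.08 over its 6 genes and of 0.05 over the 5 other than Rpe65. In bulk tissue, fewer cells of a type and less RNA per cell cannot be told apart.

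Oxidative phosphorylation genes were more often positive than genes at large, as a description. Of 52 tested, 37 had a positive difference (71.2%, against 46.9% of all 3165 genes), with a median of 0.09. Their CT6 arrays lay wholly above the ZT6 arrays in 8 and below in 2, against 223 and 306 of all 3165 genes, and none passed. Ndufb10, a complex I subunit, was at 12.59, 12.7 and 12.54 at CT6 and at 11.74, 12.11 and 12.05 at ZT6 (0.64). Atp5pd, a subunit of ATP synthase, was at 13.73, 13.87 and 13.72 at CT6 and at 13.37, 13.06 and 13.24 at ZT6 (0.55). Ndufs4 differed by 0.54 and, in its second probe set, by 0.09, and Ndufb1, also of complex I, by -0.65. The mean level of the list was 13.27 to 13.32 at CT6 and 13.06 to 13.34 at ZT6, so the groups overlapped.

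The median of all genes was -0.016. Ribosomal protein genes had a median of -0.04 (37 genes), glycolysis 0 (22), fatty acid oxidation 0.01 (19), sterol synthesis 0.06 (16), chaperones 0.08 (24) and synaptic vesicle genes 0.04 (21). Cpt1a, which admits fatty acids to mitochondria, was at 13.05, 13 and 13.4 at CT6 and at 13.5, 13.62 and 13.53 at ZT6 (-0.4, adjusted p = 0.466). Pfkfb3, a regulator of glycolysis, differed by -0.56 and Pdk1, which restrains pyruvate oxidation, by 0.55. Prdx3, a mitochondrial peroxidase, differed by -0.54. Blood, immune and vascular lists had medians of 0.26 (5 genes), -0.16 (13) and 0.05 (5), and the list of cornea, iris, ciliary body and muscle genes -0.27 (16). The pineal list had the lowest median, -0.34, with 4 of 6 genes negative, and its muscarinic receptor gene Chrm3 was wholly lower at CT6 (-0.42, adjusted p = 0.466). Haemoglobin Hbb was at 15.02, 14.46 and 16.16 at CT6 and at 14.47, 15.06 and 15.1 at ZT6, with its highest value on CT6 array 3. Its difference was 0.34, and -0.14 ± 0.27 without that array (adjusted p = 0.867).

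**Figure D5:**
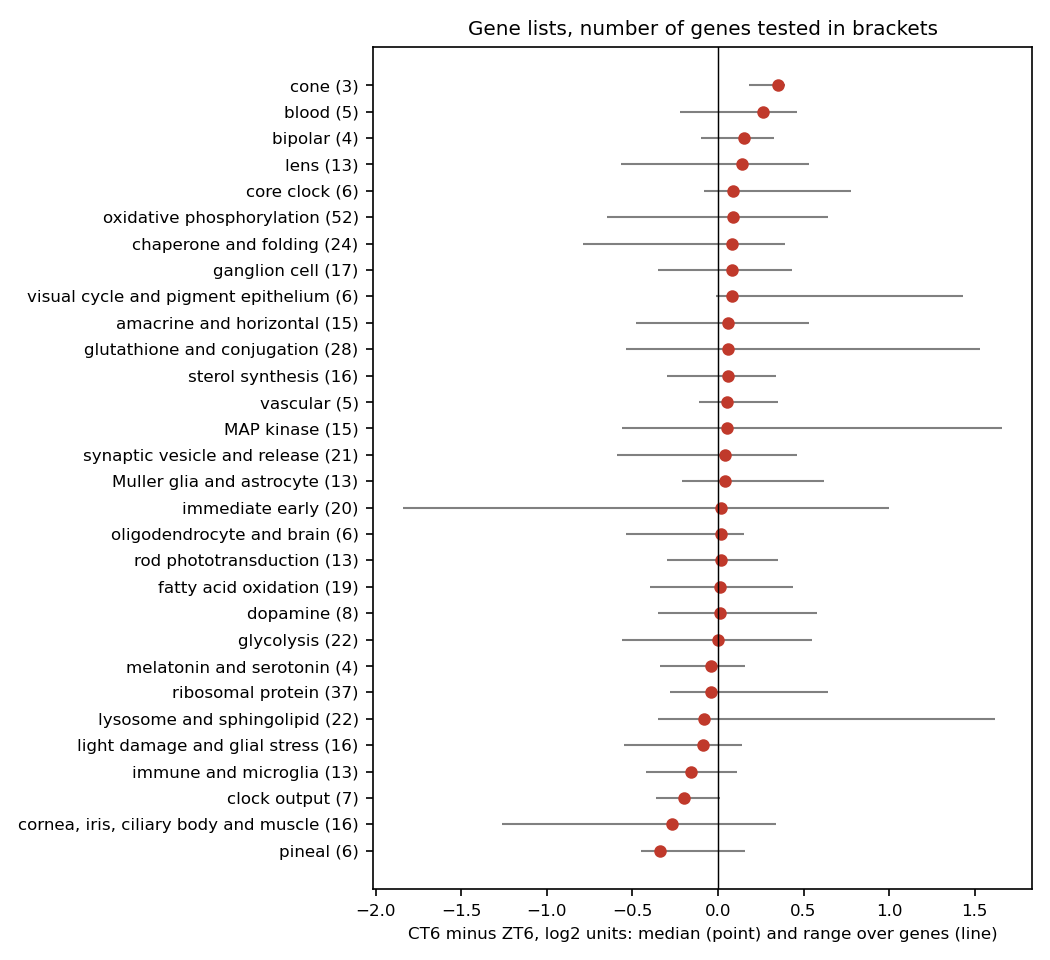
Median difference between CT6 and ZT6 in log2 units (point) and range over the genes tested (line) for 30 gene lists, with the number of genes in brackets. Medians lie between -0.34 for the pineal list and 0.35 for the cone list, and the longest lines belong to lists that hold Atf3, Gm2a, Mapk7 or Gstk1.

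Whether the difference at hour 6 was unlike that at hour 12 was tested on all 12 retina arrays. A single probe set of 5244 passed (0.0191%), that of Nptx2, S82649_r_at. This count depends on single arrays and on weighting, since it was 1370 under array weights, 63 with CT12 array 3 omitted, 4 with CT12 array 2 omitted and 3 with CT6 array 1 omitted. CT12 array 1, which stood apart from its partners in genes such as Got1, is in these fits, and the count was also 1 with it omitted. The means of the Nptx2 probe set were 11.64 ± 0.22 at CT6, 9.89 ± 0.38 at ZT6, 9.33 ± 0.37 at CT12 and 11.53 ± 0.38 at ZT12 (SD, n = 3 each). CT6 minus ZT6 was 1.75 and CT12 minus ZT12 was -2.2, so the signs were opposite, and the difference between them was 3.95 ± 0.38 (limma, adjusted p = 0.00397). Without CT12 array 1 it was 4.15 ± 0.36 (adjusted p = 0.00261). The Gstk1 probe set S83436_i_at had a similar order, with 10.5 ± 0.52 at CT6, 9 ± 0.83 at ZT6, 8.59 ± 0.31 at CT12 and 11.24 ± 0.41 at ZT12, but it did not pass (4.15 ± 0.58, adjusted p = 0.0585). The other Gstk1 probe set, rc_AI105137_s_at, did not share this order. It differed by 0.05 at hour 6 and by 0.57 at hour 12 (contrast -0.53 ± 0.45, adjusted p = 0.523). Gm2a differed by 1.59 at hour 6 and by -0.28 at hour 12, and that contrast did not pass either (1.87 ± 0.34, adjusted p = 0.114). For Fos the differences were 0.04 at hour 6 and -1.24 at hour 12 (contrast 1.28 ± 0.25, adjusted p = 0.114).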

How the data were processed

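The deposited series matrix holds linear probe set intensities, scaled by the authors to a trimmed mean (2% off each end) of 2503 to 2504 on the 6 arrays, as the file's values show. Which software made them is not given in the sources used here. Genes were named through the platform annotation and RefSeq. The 6 arrays were quantile normalized without controls, and log2(intensity + 16) was fitted with limma 3.58.1 (R 4.3.3; lmFit and eBayes, two-sided, 4 residual and 2.75 prior degrees of freedom), with Benjamini-Hochberg adjustment over 5244 probe sets and a threshold of 0.05. A fit of 12 retina arrays gave the contrast between hours. The 30 lists were described by each gene's brightest probe set. Named genes (161) were, in each direction, the 12 with the smallest p and the 5 with the widest difference without overlap, all clock, output, melatonin and immediate early genes, and up to 4 of every other list. Amino acid response genes, Ccnd2, Git1, Rhbdl1, Il1rl2 and some list members were named after their values were seen. The members and lists were chosen with earlier results of these data known. Simulated data with nothing changed gave 0 calls. Alternatives were other offsets, normalizations, filters and priors, array weights, a replicate block, a lens covariate and arrays left out.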

Additional observations from a re-analysis of the deposited data

Results flagged for a closer look

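The Nptx2 probe set S82649_r_at stood out because its difference between CT and ZT at hour 6 was unlike that at hour 12 by a test of the contrast itself. The contrast (CT6 minus ZT6) minus (CT12 minus ZT12) was 3.95 ± 0.38 log2 units (limma, adjusted p = 0.00397), with CT6 above ZT6 in 3 of 3 arrays and CT12 below ZT12. In the same fit the other Nptx2 probe set, S82649_s_at, differed by 0.3 at hour 6 and by -1.15 at hour 12. Its contrast was 1.44 ± 0.73 (adjusted p = 0.346), and 0.64 ± 0.21 without CT12 array 1 (adjusted p = 0.172). What makes the probe sets differ was not tested.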

How the results depend on the processing

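The count of 0 probe sets between CT6 and ZT6 was also 0 under another offset (1 or 64), without a filter or with a stricter one, at a common median, without quantile normalization, under array weights, a trended robust prior or a lens covariate, and in the 12-array and 11-array fits. In the 12-array fit 266 had an unadjusted p under 0.05, against 512 in the 6 arrays. It was 3 without the arrays numbered 3 and 3 without both arrays low in lens genes, an alternative chosen after seeing the data, and each time all were among the genes named. Leaving out each array in turn gave 0 to 4 probe sets, 0 to 4 named and 0 to 1 from the lists, with every call made without CT6 array 3. Asns had -2.71 and -2.6, Trib3 -2.59 and -2.72 in those first 2 settings. Intervals within 2-fold numbered 3244 to 5383 over all settings, where the filters change the number tested. The lens level difference ran from -0.94 to 1.29 with single arrays left out and was 1.8 without the arrays numbered 3.

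Whether the numbers in the titles pair the arrays is not given in the labels, although the arrays numbered 3 share a source name. The values cannot decide it, with 3 arrays in each group and a low lens level shared by arrays of unlike number. Correlations of same-numbered deviations from the group means were 0.358, -0.405 and -0.104, and 1 of 3 CT6 arrays correlated best with its own number. With the number as a replicate block 0 probe sets passed (smallest adjusted p = 0.346). The contrast between hours called 1 probe set, 2 with the replicate block and 1370 with array weights, where 790 were positive. With single arrays left out it called 1 to 63, and the highest counts came when CT12 array 3 (63), CT12 array 2 (4) and CT6 array 1 (3) were omitted, followed by 2 when either CT6 array 2 or ZT6 array 1 was. The cause of these shifts was not tested. Signal over background is not given in the values used, so dim probe sets were limited by the filter alone.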
